A study of Mus musculus with 6 samples.

Results

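CXC chemokines are small secreted proteins whose first pair of cysteines is separated by a single residue, and their receptors are G protein-coupled receptors of leukocytes. The set described here held 10 genes, 8 ligands (Cxcl1, Cxcl2, Cxcl3, Cxcl9, Cxcl10, Cxcl14, Cxcl16 and Pf4) and 2 receptors (Cxcr2 and Cxcr4), out of 57132 genes in the table. The genes were chosen by symbol, each matched to its Ensembl identifier. They were measured by mRNA sequencing in dendritic cells grown from the bone marrow of female C57BL/6 mice aged 6 to 8 weeks. All cultures received dialyzed serum and the cytokine GM-CSF at 15 ng/mL, with new medium on days 2 and 4 and RNA taken on day 5. In the 0Q group the medium held no queuine, and in the 100Q group it held queuine at 100 nM, with 3 libraries per group. Queuine is the base that cells exchange into certain tRNAs to form queuosine. The labels describe triplicate plating and do not name separate animals. The p-values therefore cover only the spread among these cultures, which may be technical. Cultures grown with GM-CSF are mixed populations that also hold granulocytes and macrophages.

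Ligands that carry the residues Glu-Leu-Arg just before the cysteines, here Cxcl1, Cxcl2 and Cxcl3, attract neutrophils through Cxcr2. Cxcl9 and Cxcl10 are interferon-induced and act on Cxcr3 of T cells. Cxcr4 binds Cxcl12 and holds myeloid cells in the marrow, and Pf4, also called Cxcl4, is a major platelet granule protein that myeloid cells can also transcribe. The stretch of 10 codons around the cysteines is shown for the 8 ligands because it carries the feature that names and divides the family. Capitals mark the cysteine codons and, where present, the Glu-Leu-Arg codons before them. The sequences were read from the GENCODE transcripts on GRCm39.
Cxcl1: gccaatGAGCTGCGCTGTcagTGCctgcag
Cxcl2: gccagtGAACTGCGCTGTcaaTGCctgaag
Cxcl3: gccagtGAGCTGCGCTGTcagTGCctgaac
Cxcl9: ataaggaatgcacgaTGCtccTGCatcagc
Cxcl10: gcaaggacggtccgcTGCaacTGCatccat
Cxcl14: gtggacgggtccaagTGTaagTGTtcccgg
Cxcl16: agtgtcgctggaagtTGTtctTGTgatcgt
Pf4: gatggagatcttagcTGTgtgTGTgtgaag
The Glu-Leu-Arg codons were found in Cxcl1, Cxcl2 and Cxcl3 and in none of the other 5 ligands.

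Libraries held 3675918 to 6755367 counts, except 100Q replicate 3 with 19386533, and 10554 genes passed the filter on low counts. A count of 3 stood for 0.159 CPM (TMM-scaled counts per 1e+06 counts of the tested genes) for the deepest library and for 0.833 CPM in the shallowest, 0Q replicate 3. In 0Q replicate 1 the log2 deviation of a gene from the other libraries had a Spearman rho of -0.15 with its exon length across genes, against -0.04 to 0.09 in the other 5 libraries. Of the 12 dendritic cell markers 11 passed the filter, led by the antigen-presenting gene H2-Aa with mean CPM of 577 in 0Q against 580 in 100Q. The dendritic list summed to 1038 to 1213 CPM over the 6 libraries, the monocyte and macrophage list to 18962 to 22752 CPM and the neutrophil list to 14581 to 20315 CPM.

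Pf4 was by far the most abundant member, Cxcl9 had no counts, and none of the 6 tested members differed between the groups past the threshold. Of the 10 genes, 9 had at least 1 count, 6 passed the filter and were tested, and 4 (Cxcl1, Cxcl9, Cxcl10 and Cxcl14) did not pass it. By edgeR's quasi-likelihood test with Benjamini-Hochberg adjustment over all 10554 genes, 0 of the 6 had an adjusted p under 0.05, where 0% of all tested genes did. DESeq2 and limma-voom likewise called 0 genes. Genes with an unadjusted p under 0.05 were 309 of 10554 by edgeR and 310 of 10554 by limma-voom. DESeq2, fitted without the filter on low counts, had 544 of 21304. At an unadjusted p under 0.05 by edgeR there was 1 of the 6, Pf4, where 2.93% of all tested genes had such a value. Estimates lay above 0 for 3 members (Cxcl2, Cxcl16 and Cxcr2) and below 0 for 3 (Pf4, Cxcl3 and Cxcr4). Their median log2 fold change was -0.13, and that of all tested genes was 0.00.

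**Figure D1:**
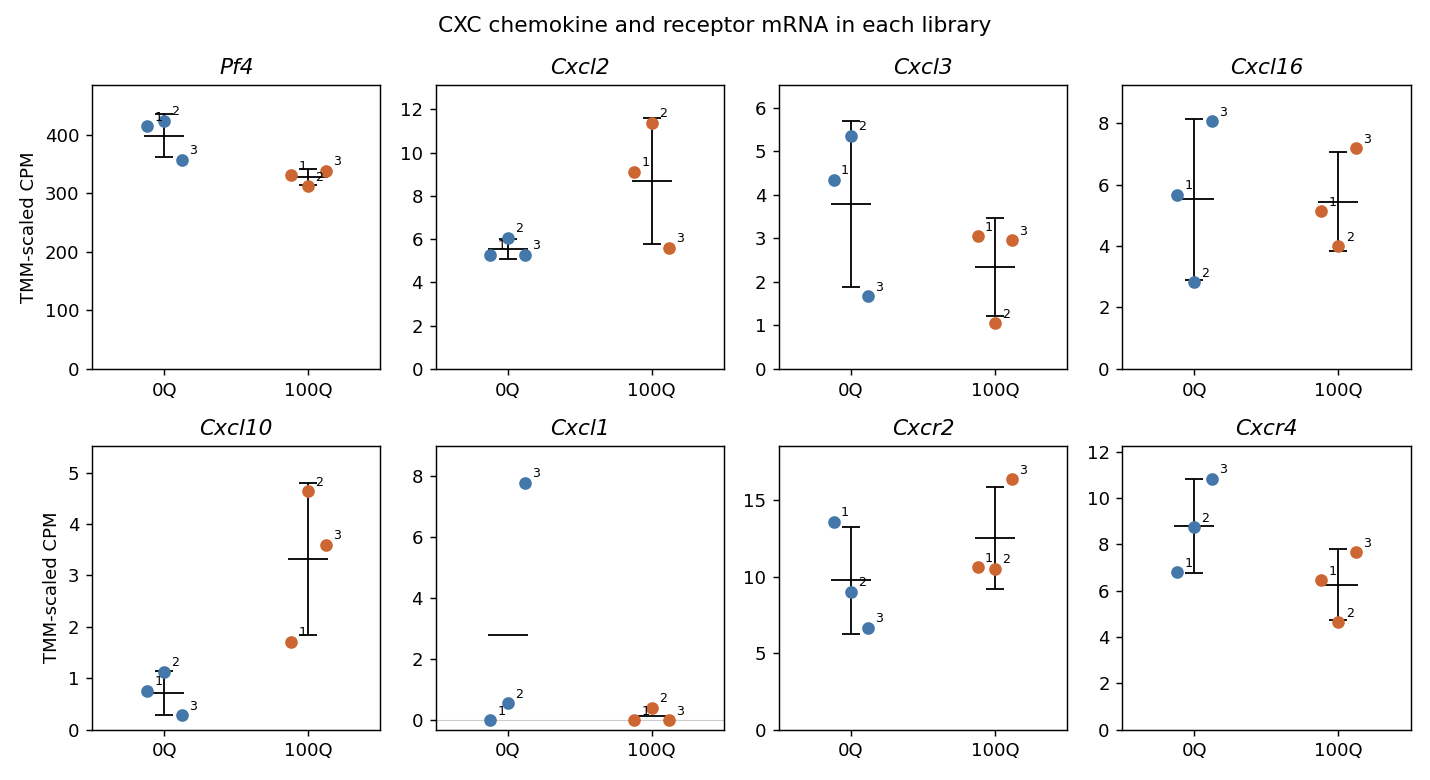
TMM-scaled CPM of 8 genes in each library, with 0Q in blue, 100Q in orange and the replicate number beside each point. Horizontal bars are group means and whiskers are 1 SD (n = 3; no SD is drawn for Cxcl1, which was at 0 in 3 libraries). The groups are apart for Pf4 and Cxcl10 and overlap for the other 6 genes.

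Levels between genes were compared as CPM per kilobase of exon. Pf4 stood at a mean level of 148 CPM per kilobase (range 127 to 172 over the 6 libraries). Cxcr4, Cxcr2 and Cxcl2 followed at mean levels of 4.13, 3.66 and 3.44 CPM per kilobase, and their ranges overlapped one another (2.54 to 5.95, 2.19 to 5.38 and 2.55 to 5.50). Below them, Cxcl16, Cxcl10 and Cxcl3 had mean levels of 1.07, 0.895 and 0.878 CPM per kilobase, again with overlapping ranges. Cxcl16 and Cxcl3 lay below Cxcl2 in all 6 libraries. The mean of Cxcl1, 0.776 CPM per kilobase, came almost wholly from 1 library, and Cxcl14 had 1 count in all. Pf4 made up 88.7% to 92.6% of the summed CPM of the 10 genes, which was 398 to 458 CPM in 0Q and 349 to 382 CPM in 100Q. Without Pf4 the sums were 33.8 to 40.6 and 36.1 to 43.4 CPM, so those of the groups overlapped.

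**Figure D2:**
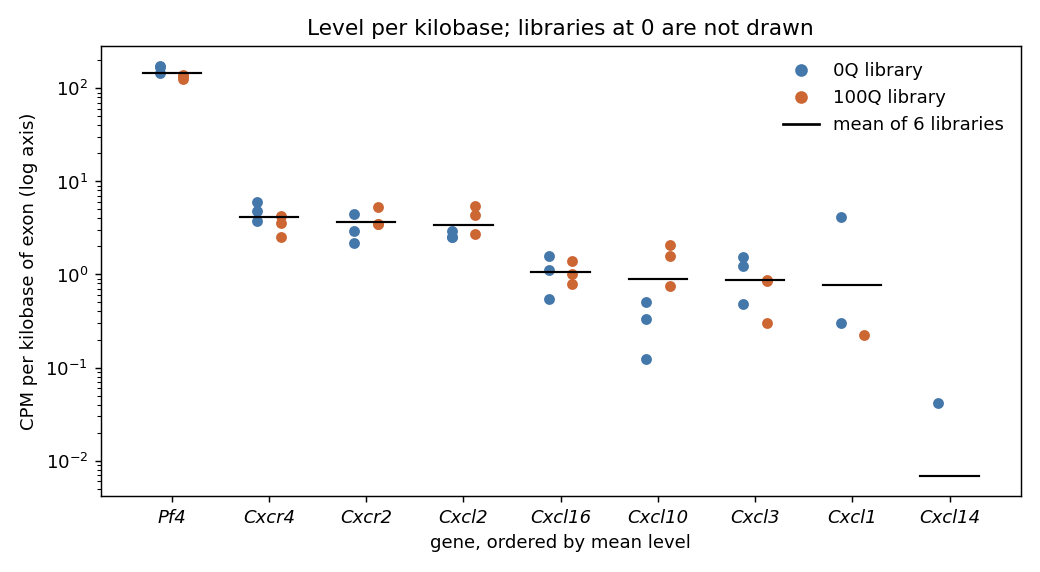
CPM per kilobase of exon on a log axis for the 9 genes with counts, ordered by mean level, with one point per library (0Q blue, 100Q orange) and a bar at the mean. Libraries at 0 are not drawn. Pf4 at 148 CPM per kilobase lies above all points of the other genes.

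Pf4 (ENSMUSG00000029373, chromosome 5, 90918479 to 90922110, plus strand, GRCm39), which binds heparin and is packed into platelet granules, ranked 404 of 57132 genes by mean CPM. Replicates 1, 2 and 3 of 0Q had 415, 425 and 358 CPM, and those of 100Q had 332, 313 and 339 CPM. Each 0Q library lay above each 100Q library, and the nearest were 0Q replicate 3 and 100Q replicate 3. Of the 6 tested members 1 had groups apart with 100Q lower and 0 with 100Q higher, where 3.84% and 4.41% of all tested genes did, or 8.24% in either direction. The group means were 399 ± 36.2 CPM and 328 ± 13.6 CPM (SD, n = 3 each). The log2 fold change of 100Q relative to 0Q was -0.28 (SE 0.12, 95% interval -0.54 to -0.03, edgeR unadjusted p = 0.0311, adjusted p = 0.999). In 100Q this corresponded to 0.688 to 0.980 of the 0Q level over that interval. With 1 library left out the value was lowest without 0Q replicate 3 (-0.36) and highest without 0Q replicate 2 (-0.24), and its unadjusted p from edgeR rose above 0.05 in 5 of the 6 omissions.

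Bulk libraries cannot tell fewer cells of a type from less RNA per cell. The megakaryocyte and platelet markers were low beside Pf4. Ppbp, the platelet basic protein whose gene ends 0.548 kb before Pf4, had 24.0 ± 2.31 CPM (0Q) and 25.8 ± 9.54 CPM (100Q) (SD, n = 3 each), with a log2 fold change of 0.10 (SE 0.31, edgeR adjusted p = 0.999). Vwf, the von Willebrand factor of platelets and endothelium, had 24.1 ± 4.66 and 20.6 ± 4.31 CPM, and Itgb3, an integrin chain of platelets and other cells, 7.77 ± 1.39 and 7.84 ± 1.73 CPM. Among the defining genes, Tubb1 was at 0 in all 6 libraries, and Itga2b, Gp9, Gp1ba, Gp1bb, Gp5, Gp6 and Treml1 each had a mean of at most 1.35 CPM over the 6 libraries. The 12 markers, Ppbp among them, summed to 55.0 to 73.1 CPM (0Q) and 50.2 to 78.4 CPM (100Q), so each library's sum for this whole list was under its Pf4 value alone. The neutrophil list leaned the same way as Pf4, with 12 of 12 estimates below 0, sums of 17357 to 20315 CPM (0Q) and 14581 to 17564 CPM (100Q), and a median log2 fold change of -0.20. Of all tested genes 50% lay below 0. Further marker lists leaned below 0 too. Medians were -0.32 for mast cell and basophil (6 of 8 tested estimates below 0), -0.23 for T and NK cell (2 of 3) and -0.16 for B and plasma cell (4 of 4). Those of the megakaryocyte and platelet, stromal and endothelial, and erythroid lists were -0.12, -0.11 and -0.04. Medians lay above 0 for the monocyte and macrophage list (0.02) and the dendritic cell list (0.06). Among the 12 neutrophil markers 3 had an edgeR unadjusted p under 0.05, where 2.93% of all tested genes did, and 0 had an adjusted p under 0.05. The part of any of these cell types in the Pf4 value was not tested.

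The Glu-Leu-Arg ligands were of low abundance and had estimates on both sides of 0. Cxcl2 (ENSMUSG00000058427, chromosome 5, 91051730 to 91053797, plus strand), a neutrophil attractant made by activated macrophages, had 5.29, 6.06 and 5.28 CPM without queuine (0Q) and 9.13, 11.4 and 5.60 CPM with it (100Q), each in replicate order. The high values were 100Q replicates 1 and 2, while 100Q replicate 3, the deepest library, lay among the 0Q libraries. The log2 fold change was 0.63 (SE 0.48, 95% interval -0.37 to 1.63, edgeR adjusted p = 0.999). It was 0.39 without 100Q replicate 2, 0.88 without 100Q replicate 3 and 0.33 by limma-voom. Cxcl3 (ENSMUSG00000029379, chromosome 5, 90933962 to 90937459, plus strand), a close relative with the same receptor, had 4.34, 5.36 and 1.67 CPM without queuine (0Q) and 3.04, 1.05 and 2.96 CPM with it (100Q). Its highest values were 0Q replicates 1 and 2 and its lowest 100Q replicate 2, with 0Q replicate 3 among the low ones. The log2 fold change was -0.68 (SE 0.75, 95% interval -2.27 to 0.90, edgeR adjusted p = 0.999). It was -0.36 without 0Q replicate 2 and -1.02 without 0Q replicate 3.

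Cxcl2 and Cxcl3 are printed whole because their reads cannot always be told apart. Their coding sequences are identical over the first 98 bases from the start codon and differ at 31 of 300 positions, an identity of 89.7%. Cxcl1 is less close, at 75.7% with Cxcl2 and 72.7% with Cxcl3 by global alignment. Capitals mark the codons for Asn, Asp, His and Tyr, the residues whose tRNAs can carry queuosine.
Cxcl2: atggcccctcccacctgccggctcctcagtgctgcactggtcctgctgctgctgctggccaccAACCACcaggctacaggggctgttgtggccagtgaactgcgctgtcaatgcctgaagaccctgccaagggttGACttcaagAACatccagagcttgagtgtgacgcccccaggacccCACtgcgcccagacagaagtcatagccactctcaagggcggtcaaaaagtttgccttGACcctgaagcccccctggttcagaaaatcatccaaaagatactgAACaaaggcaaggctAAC
Cxcl3: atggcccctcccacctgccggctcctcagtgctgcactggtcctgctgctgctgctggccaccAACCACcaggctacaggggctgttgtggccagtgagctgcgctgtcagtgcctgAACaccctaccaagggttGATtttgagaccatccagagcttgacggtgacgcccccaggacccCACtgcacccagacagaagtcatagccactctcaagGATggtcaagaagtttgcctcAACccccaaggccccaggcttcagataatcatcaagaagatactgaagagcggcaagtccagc
In 2 libraries the deposited expected counts of the pair were not whole and added up to a whole number, 27.52 and 23.48 (sum 51) in 0Q replicate 1 and 106.15 and 55.85 (sum 162) in 100Q replicate 3. The 4 other libraries had whole values for both genes. Cxcl2 took 54.0%, 53.1% and 76.0% of the pair's counts in the 3 libraries of 0Q, by replicate number, and 75.0%, 91.5% and 65.5% in 100Q. Counted as 1 gene, a setting chosen after the data were seen, the pair had a log2 fold change of 0.22 (edgeR unadjusted p = 0.587), which is smaller in size than that of either gene alone and opposite in sign to that of Cxcl3.

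**Figure D3:**
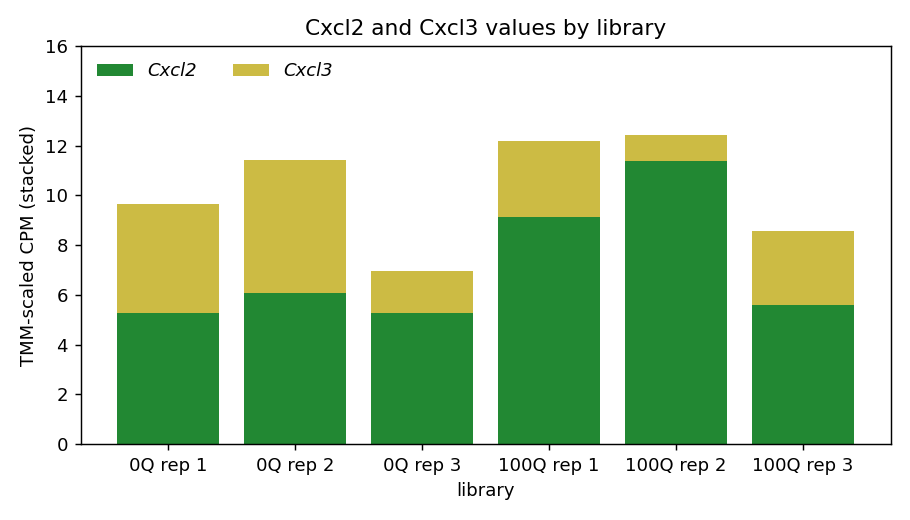
TMM-scaled CPM of Cxcl2 (green) and Cxcl3 (yellow), stacked, in each of the 6 libraries. The share of Cxcl2 runs from 53.1% in 0Q replicate 2 to 91.5% in 100Q replicate 2, and the groups overlap.

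Cxcl1 (ENSMUSG00000029380, chromosome 5, 91039094 to 91040974, plus strand), the third ligand of this type, was detected almost only in 0Q replicate 3. There it had 28 counts, or 7.78 CPM (exact binomial 95% interval 5.17 to 11.2, which covers counting error only). The other libraries had 0 and 4 counts in 0Q and 0, 2 and 0 in 100Q, at most 0.564 CPM. The spread of Cxcl1 within groups was 22.03 times the counting variance, above the ratio of 89.3% of all tested genes. Cxcl2 and Cxcl3 had ratios of 5.34 and 3.34 and the median tested gene 7.81. At equal relative spread this ratio grows with the count, so it does not rank genes by steadiness. The relative spread beyond counting error that edgeR estimated was 0.39 for Cxcl2 and 0.57 for Cxcl3. For Pf4 it was 0.13, with a ratio of 8.98. In 0Q replicate 3 Cxcl16 and Cxcr4 were at their highest and Cxcl2, Cxcl10 and Cxcr2 at their lowest. The difference in mean log2(CPM + 1) was -1.09 (exact two-sided permutation p = 0.4) and was -0.15 without 0Q replicate 3. Without the filter edgeR gave Cxcl1 an unadjusted p of 0.00768 (adjusted p = 0.837), and DESeq2 gave an unadjusted p of 0.164. Cxcl5, a further ligand of Cxcr2 outside the set, had 5, 6 and 8 counts in 0Q and 3, 0 and 1 in 100Q. In CPM its groups were apart, from 0.846 to 2.22 in 0Q and from 0 to 0.570 in 100Q, at counts near the limit of detection. The same held in either direction for 8.81% of the 2995 genes outside the fit with at least 20 counts.

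Cxcl10 was the other member whose groups did not overlap, at very low counts. This interferon-induced ligand of Cxcr3 (ENSMUSG00000034855, chromosome 5, 92494497 to 92496748, minus strand) had 4, 8 and 1 counts in 0Q, or 0.755, 1.13 and 0.278 CPM. In 100Q it had 9, 22 and 68 counts, or 1.71, 4.63 and 3.59 CPM. Each 100Q library lay above each 0Q library, but the exact binomial 95% intervals of the nearest pair overlapped, 0.487 to 2.22 CPM in 0Q replicate 2 and 0.782 to 3.25 CPM in 100Q replicate 1. The exact two-sided permutation test on log2(CPM + 1) gave p = 0.1, the smallest that 3 against 3 libraries allow. Among the 2995 genes outside the fit with at least 20 counts, 8.81% had groups that did not overlap, and 5.71% with 100Q higher. Without the filter edgeR gave a log2 fold change of 2.13 (unadjusted p = 0.0512, adjusted p = 0.837), and DESeq2 gave 2.13 (unadjusted p = 0.0331, adjusted p = 0.997). With 1 library left out the difference in mean log2(CPM + 1), 1.29 with all 6, ranged from 1.07 to 1.60. Cxcl10 overlaps Art3 on the other strand, which had 9 counts in all.

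Cxcl9 (ENSMUSG00000029417, chromosome 5, 92469206 to 92475945, minus strand), the interferon-gamma-induced neighbour of Cxcl10, had 0 counts throughout, and a limit of 3 counts per library leaves room for 0.159 to 0.833 CPM depending on depth. Cxcl11, the third ligand of Cxcr3, also had 0 counts throughout, and Cxcr3 itself had 3 counts, all in 0Q replicate 1. Ifng, the cytokine that induces Cxcl9, had 0 counts. Of the interferon gamma list 8 genes were tested. Estimates were positive for 3 and negative for 5, the median log2 fold change was -0.05, and 0 were at an edgeR adjusted or unadjusted p under 0.05. Irf8, a transcription factor of the dendritic cell lineage, had mean CPM of 15.997 ± 4.71 (0Q) and 23.7 ± 4.91 (100Q) (SD, n = 3 each, edgeR unadjusted p = 0.109), and Irf1, which binds interferon-responsive promoters, 14.8 ± 3.97 and 9.49 ± 3.39 CPM (edgeR unadjusted p = 0.141).

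Cxcl16 (ENSMUSG00000018920, chromosome 11, 70344517 to 70352620, minus strand), a membrane-bound ligand of Cxcr6 that also takes up oxidised lipoprotein, had 5.67, 2.82 and 8.06 CPM without queuine (0Q) and 5.13, 4.00 and 7.19 CPM with it (100Q). Both groups spanned low and high values, and their ranges nearly coincided. The log2 fold change was 0.02 (SE 0.56, 95% interval -1.15 to 1.19, edgeR adjusted p = 0.999), so changes past 2-fold in either direction remained within the interval. Its sign turned without 0Q replicate 2 (-0.31) and without 100Q replicate 3 (-0.25). Cxcl16 overlaps Med11 and Zmynd15 on the other strand. Med11 had 2788 counts over the 6 libraries against 261 for Cxcl16, and without known strandedness reads of the overlap cannot be assigned with certainty. Adam10, the protease that sheds Cxcl16 from the membrane, had a mean of 639 CPM without queuine and 618 CPM with it, a difference of -0.05 on the log2 scale. Cxcl14 (ENSMUSG00000021508, chromosome 13, 56436352 to 56444603, minus strand), an epithelial ligand, had 1 count, in 0Q replicate 2.

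Of the receptors, Cxcr2 had an estimate above 0 and Cxcr4 below, and neither passed the test. Cxcr2 (ENSMUSG00000026180, chromosome 1, 74193150 to 74200405, plus strand), the receptor of mature neutrophils for the Glu-Leu-Arg ligands, had 13.6, 9.03 and 6.67 CPM without queuine (0Q) and 10.6, 10.5 and 16.4 CPM with it (100Q). The low extreme was 0Q replicate 3, the shallowest library, and the high extreme 100Q replicate 3, the deepest. The other 4 libraries lay between them. The log2 fold change was 0.36 (SE 0.40, 95% interval -0.49 to 1.22, edgeR adjusted p = 0.999), and with 1 library left out it was lowest without 100Q replicate 3 (0.11) and highest without 0Q replicate 1 (0.68). The neutrophil markers had estimates on the other side of 0. Camp, a cathelicidin of neutrophil granules, had 1651 CPM without queuine and 1320.4 CPM with it, and Ly6g, a neutrophil surface antigen, 106 and 77.0 CPM. Cxcr1, the other receptor of this type, had 0 counts in all libraries.

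Cxcr4 (ENSMUSG00000045382, chromosome 1, 128515936 to 128520044, minus strand), the receptor that retains leukocytes in the marrow, had 6.80, 8.74 and 10.8 CPM without queuine (0Q) and 6.46, 4.63 and 7.66 CPM with it (100Q). Only 100Q replicate 3 lay within the range of the 0Q libraries, and 0Q replicate 1 lay below it. The log2 fold change was -0.47 (SE 0.46, 95% interval -1.44 to 0.49, edgeR adjusted p = 0.999). It was -0.30 without 0Q replicate 3 and -0.66 without 100Q replicate 3. Its ligand Cxcl12 had 2, 0 and 3 counts in 0Q and 7, 0 and 9 in 100Q. The within-group spread of Cxcr4 was 2.34 times the counting variance, and 10.4% of tested genes had a lower ratio. As for Cxcl2 and Cxcl3, such a ratio at low counts does not mean a steady gene. The relative spread of Cxcr4 beyond counting error was 0.38 by edgeR, against 0.13 for Pf4. Cxcr5, a receptor of B cells, had 1, 1 and 0 counts in 0Q and 7, 6 and 4 in 100Q, and the decoy receptor Ackr1 had 8 counts, all in 100Q replicate 3. Of 13 other CXC ligands and receptors, 1 was tested (Ppbp) and 4 had no counts.

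**Figure D4:**
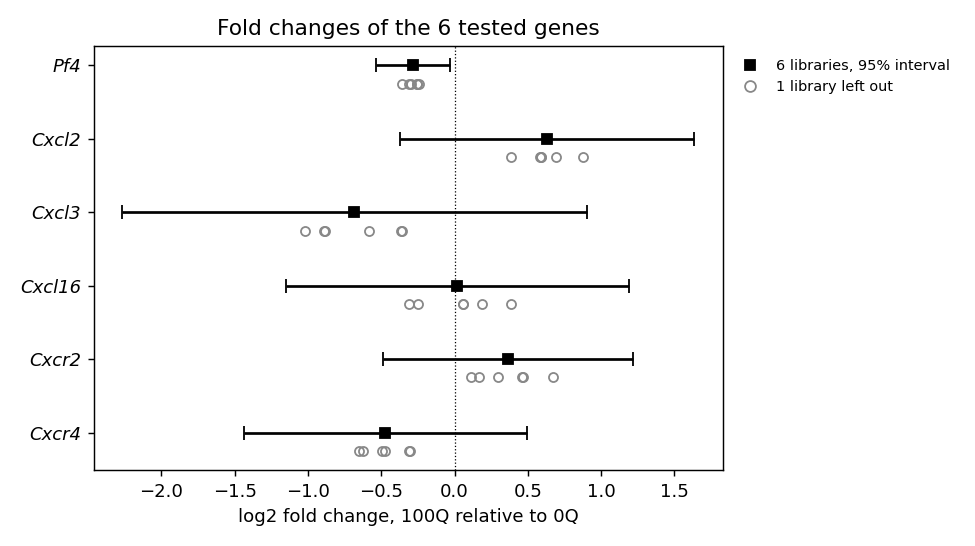
Log2 fold change of 100Q relative to 0Q for the 6 tested genes, with squares and bars for the edgeR estimate and its 95% interval and open circles for estimates with 1 library left out. The interval of Pf4, -0.54 to -0.03, is the narrowest and lies below 0, and the other 5 cross 0.

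Signals from these receptors pass through Gi proteins to phosphoinositide 3-kinase gamma and Rac. Of 28 tested signalling genes, 16 had positive and 12 negative estimates. Their median log2 fold change was 0.05, and 0 were at an unadjusted p under 0.05 by edgeR. Rac2, the haematopoietic Rac GTPase, was the most abundant at 803 ± 97.7 CPM (0Q) and 716 ± 91.5 CPM (100Q) (SD, n = 3 each). Gnb2, a G protein beta subunit, had 9.33 ± 0.938 and 16.2 ± 6.26 CPM (edgeR unadjusted p = 0.0579), and Gnai3, a Gi alpha subunit, 92.5 ± 10.3 and 117 ± 20.4 CPM (edgeR unadjusted p = 0.0715). The NF-κB pathway, which induces Cxcl1, Cxcl2 and Cxcl3, had 10 of 21 tested genes with a positive estimate and 11 with a negative one, and the median was -0.02. Nfkbia, its inhibitor and target, had 175 ± 31.4 and 153 ± 29.2 CPM, Tnfaip3, a deubiquitinase that restrains the pathway, 15.97 ± 6.81 and 10.96 ± 3.30 CPM, and Irak1, a kinase below Toll-like receptors, 17.9 ± 3.06 and 12.3 ± 3.93 CPM. By edgeR, 0 of the 21 had an unadjusted p under 0.05.

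All 8 tested genes of the list on chemokine mRNA stability had estimates above 0, where 50% of all tested genes did, with a median log2 fold change of 0.25. By edgeR 0 of them had an unadjusted p under 0.05. Zfp36l1, which binds AU-rich elements and speeds decay, had 11.6 ± 3.80 CPM without queuine and 19.97 ± 7.88 CPM with it (SD, n = 3 each, edgeR unadjusted p = 0.0626), and its relative Zfp36l2 64.6 ± 14.5 and 82.9 ± 29.6 CPM. The groups overlapped for both genes. Elavl1, which stabilises such mRNAs, was the most abundant at 92.4 ± 25.8 and 95.7 ± 18.5 CPM. Among 13 tested proteases and cofactors that shed or trim chemokines, 8 had positive and 5 negative estimates. The median was 0.10, and 0 were at an unadjusted p under 0.05 by edgeR. Mmp12, the macrophage elastase, had 17604 ± 2631 and 19217 ± 3541 CPM. Of the neutrophil serine proteases, Prtn3 had 57.9 ± 17.3 and 43.6 ± 10.3 CPM, and Elane, which is also on the neutrophil marker list, 237 ± 19.4 and 209.98 ± 10.9 CPM. Ctsg, a further protease of this kind, lay on the other side, at 65.0 ± 15.1 and 72.3 ± 8.36 CPM.

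Most of the ligand genes lie in 2 clusters on chromosome 5, and their levels differed widely within them. The first runs over 147 kb from Cxcl5 through Ppbp, Pf4, Cxcl3, Cxcl15 and Cxcl1 to Cxcl2, all on the plus strand. Pf4 had 148 CPM per kilobase and its neighbours Ppbp and Cxcl3 had 19.2 and 0.878, while Cxcl15 had no counts. The second cluster holds Cxcl9, Cxcl10 and Cxcl11 over 44.1 kb on the minus strand, of which Cxcl10 had counts and the other 2 had none.

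Of the 10 members, 4 had a match to an NF-κB type pattern (GGG, any 3 bases, then TTCC, on either strand) in the window from 250 bases before to 50 bases after the start of their GENCODE canonical transcript, namely Cxcl1, Cxcl2, Cxcl3 and Cxcl10. Over all 21770 coding genes 5.78% had such a match. The windows are shown so that the matched sites can be seen. Values of Cxcl10, outside the fit, lay higher in 100Q. The estimates of Cxcl2 (positive) and Cxcl3 (negative) had intervals that crossed 0, and the counts of Cxcl1 came almost only from 0Q replicate 3. Neither a shared nor an opposed direction is therefore established, and a link between the pattern and these values was not tested. Matches on both strands of 1 site overlap in Cxcl1, Cxcl2 and Cxcl3. Capitals mark matches to this pattern and, in Cxcl3, to TATAAA, which 13.2% of all promoters held. The bases end just before the start, on GRCm39, at chr5:91038974-91039093 (plus) for Cxcl1, chr5:91051610-91051729 (plus) for Cxcl2, chr5:90933842-90933961 (plus) for Cxcl3 and chr5:92496749-92496918 (minus) for Cxcl10.
Cxcl1: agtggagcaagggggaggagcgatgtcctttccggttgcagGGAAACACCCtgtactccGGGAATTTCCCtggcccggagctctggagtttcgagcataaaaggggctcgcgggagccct
Cxcl2: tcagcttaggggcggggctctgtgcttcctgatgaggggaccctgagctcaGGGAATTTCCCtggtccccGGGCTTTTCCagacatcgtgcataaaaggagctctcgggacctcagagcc
Cxcl3: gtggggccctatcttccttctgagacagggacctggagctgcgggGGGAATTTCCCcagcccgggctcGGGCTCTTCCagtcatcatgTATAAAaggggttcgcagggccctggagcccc
Cxcl10: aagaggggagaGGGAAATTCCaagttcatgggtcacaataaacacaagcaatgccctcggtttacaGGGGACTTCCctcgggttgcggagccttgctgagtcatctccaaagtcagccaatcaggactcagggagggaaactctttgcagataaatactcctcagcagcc
An interferon-response type pattern (GAAA, any 2 bases, then GAAA, on either strand) was found in the windows of Cxcl10 and Cxcl14 and in 3.84% of all promoters, and in Cxcl10 it lies 213 to 204 bases before the start, outside the bases printed. A match describes letters only, and binding was not measured.

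The members differed in their use of the codons that queuosine tRNAs read, which end in U or C. Over 8759 tested genes with at least 20 such codons, the median share ending in U was 44.0%, and the 10th and 90th percentiles were 28.4% and 61.3%. Cxcl2 used 0 codons ending in U of 8, Cxcl3 2 of 7 and Cxcl1 2 of 6. At the other end Cxcl10 used 6 of 9 (66.7%) and Pf4 5 of 8 (62.5%), above 95.6% and 91.5% of those 8759 genes. Both have fewer than the 20 such codons required of those genes, so the comparison is not with genes of like codon number. The receptors have more such codons, 49 in Cxcr2 with 40.8% ending in U and 56 in Cxcr4 with 28.6%. The 5 ligands just named have 6 to 9 such codons each, so 1 codon moves a share by over 10 percentage points. These codons made up 6.25% of Cxcl1, 7% of Cxcl3, 7.62% of Pf4 and 8% of Cxcl2, against a median of 13.7% over tested genes. In Cxcl10, Cxcl16 and Cxcl14 they made up 9.18%, 10.6% and 11.6%, in Cxcr2 13.6%, and in Cxcl9 and Cxcr4 14.6% and 15.6%. The coding sequence of Cxcl10 and the first 300 of 315 coding bases of Pf4 are given for comparison with Cxcl2 and Cxcl3 above, with the same codons in capitals.
Pf4: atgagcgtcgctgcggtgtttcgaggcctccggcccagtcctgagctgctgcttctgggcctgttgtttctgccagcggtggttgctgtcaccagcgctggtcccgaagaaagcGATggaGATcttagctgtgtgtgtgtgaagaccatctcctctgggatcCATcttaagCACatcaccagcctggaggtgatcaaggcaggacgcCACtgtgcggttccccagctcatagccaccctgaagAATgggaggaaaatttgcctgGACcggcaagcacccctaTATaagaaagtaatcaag
Cxcl10: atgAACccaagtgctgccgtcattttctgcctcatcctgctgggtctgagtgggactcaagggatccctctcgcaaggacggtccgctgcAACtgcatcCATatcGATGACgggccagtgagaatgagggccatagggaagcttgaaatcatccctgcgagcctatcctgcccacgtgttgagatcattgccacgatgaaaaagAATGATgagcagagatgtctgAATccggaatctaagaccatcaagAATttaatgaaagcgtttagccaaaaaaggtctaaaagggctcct
A link between codon use and the mRNA values of the members was not tested. Translation was not measured in these libraries.

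**Figure D5:**
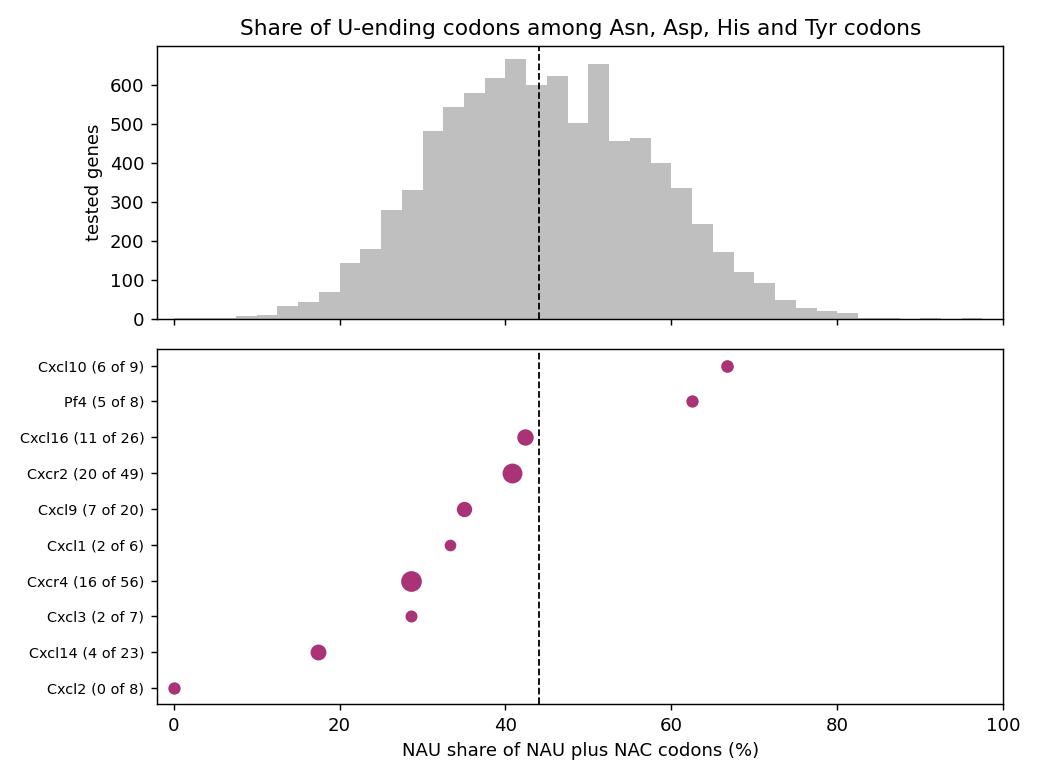
Top, tested genes with at least 20 Asn, Asp, His and Tyr codons, counted by the share of these ending in U (%). A dashed line marks the median of 44.0%. Bottom, the same share for each of the 10 members with its codon counts, with points that grow with the number of such codons, from 0% in Cxcl2 to 66.7% in Cxcl10.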

How the data were processed

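Expected counts, as the authors deposited them, came in 1 table of genes by libraries, neither pooled nor scaled. FastQC, STAR and RSEM on mm39 (GRCm39) are named in the submitters' processing notes; the sources used here give no version, annotation release or strandedness. RSEM divides ambiguous reads, and 5.51% to 10.5% of values per library were not whole. Symbols, positions and exon lengths came from GENCODE M39 on GRCm39 (502 of 57132 identifiers had no match), and 0 columns were unused. Expected counts were rounded and fitted across all genes with edgeR 4.0.16 in R 4.3.3 (filterByExpr, TMM, robust glmQLFit, glmQLFTest, Benjamini-Hochberg over 10554 genes, threshold 0.05). Standard errors were the absolute log2 fold change over the root of F. CPM used each library's total over tested genes times its TMM factor. Members outside the fit with any count had exact permutation tests. Alternatives used DESeq2 1.42.0, limma 3.58.1, other scalings and filters, a replicate block and omitted libraries. The edgeR step was also run on simulated counts in which 200 genes were changed. That run required only the right sign for most of their estimates, not their recovery at the threshold. Protein sequences were not analysed here, so cysteine and Glu-Leu-Arg positions were read from codons. Named genes were all members, each other list's most abundant tested gene and the 2 with the smallest p at 10 CPM or more; further genes were named for their role after values were seen. Values of some listed genes are not reported here. The members and lists were chosen with earlier results of these data known.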

Additional observations from a re-analysis of the deposited data

How the results depend on the processing

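No CXC member passed the threshold in any setting, and all settings were planned except the joining of Cxcl2 and Cxcl3. Over other scalings, filters, tools and the replicate block, 0 of 47 member fold changes changed sign. The joined pair had 0.22, the sign of Cxcl2 and the reverse of that of Cxcl3. With a library left out 2 of 36 did, both of Cxcl16, which was -0.31 without 0Q replicate 2 and -0.25 without 100Q replicate 3, and its values ranged from -0.31 to 0.38. The cause was not tested. Over all genes 0 to 2 passed the threshold with a library left out and 0 in each other setting. The 2 passed without 0Q replicate 1 (Gm46542, Gvin2), and 1 without 0Q replicate 2 (Gm2446), all named after their values were seen. The median of the tested members lay between -0.28 and -0.03 with a library left out. It was 0.06 with at least 10 counts in every library, where Cxcl3 could not be fitted, and 0.02 by limma-voom. Of the medians of other lists, 5 of 84 moved past their spread with a library left out and 0 of 111 otherwise. With the longest transcript as length, Pf4 had 170 CPM per kilobase. With the shortest coding sequence the U-ending share of Cxcl14 was 0% in place of 17.4%. With only the 200 bases before the start, 1 member kept an interferon-response match in place of 2. Under a replicate block 0 genes passed, the members' median was -0.11, Pf4 was at -0.28 (edgeR unadjusted p = 0.0233), and no call changed. Deviations from the group means correlated at 0.02, 0.10 and -0.02 between same-numbered libraries, so the numbers are not shown to pair samples. Depth limits the less abundant members: over all tested genes the median half-width of the 95% interval was 1.36 on the log2 scale below 10 CPM and 0.65 from 10 to 100 CPM.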

Other observations

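For the 3 most abundant members the genes with the closest pattern over the 6 libraries were sought among coding genes at 100 CPM or more, by Pearson r of log2(CPM + 1). The libraries share their scaling, and 1229 or 1230 genes were compared over 6 points, so these values only describe. For Pf4 they were Tmem256 (r = 0.97), Ndufb10 (0.96) and Snrnp27 (0.93). For Cxcr2 they were Ifi30 (0.98), Frrs1 (0.94) and Spcs2 (0.92), and for Cxcr4 Ndufa5 (0.97), Rps27 (0.95) and Dynll1 (0.95).

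Mast cell and basophil markers had 6 of 8 tested estimates below 0. Their median log2 fold change was -0.32, and 0 were at an unadjusted p under 0.05 by edgeR. Mcpt8, a basophil protease, had 139 ± 25.2 CPM (0Q) and 111 ± 7.42 CPM (100Q) (SD, n = 3 each), and Prss34, a protease of basophils and mast cells, 214 ± 31.5 and 173 ± 36.0 CPM. Dendritic cell markers had 8 of 11 tested estimates above 0 and 3 below, and a median of 0.06. At an edgeR unadjusted p under 0.05, where 2.93% of all tested genes lay, there was 1 marker in each direction. Neither had an adjusted p under 0.05. The higher in 100Q was Itgax, the dendritic cell integrin CD11c (98.6 and 140.2 CPM, edgeR unadjusted p = 0.0174). The lower was Kmo, an enzyme of tryptophan breakdown (12.9 and 6.21 CPM, edgeR unadjusted p = 0.0205). The groups did not overlap for either gene, as for 8.24% of all tested genes in either direction. T and NK cell markers had 3 tested genes, led by Il7r at 144 and 162 CPM, B cell markers 4, led by Ighm at 55.4 and 53.2 CPM, stromal and endothelial markers 2, led by Pecam1 at 19.1 and 13.3 CPM, and erythroid markers 3, in which no member had an unadjusted p under 0.05 by edgeR.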
